A study of Mus musculus with 8 samples.

Results

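The Krüppel-like factor (Klf) genes encode zinc-finger transcription factors, and 10 of them are described here across cultured mouse myotubes: Klf2, Klf3, Klf4, Klf5, Klf6, Klf7, Klf9, Klf10, Klf13 and Klf15. They were chosen by name, with earlier results of these data known, and each matched 1 of the 53647 gene identifiers counted in each library. The myotubes are muscle cells grown from wild-type (WT) primary myoblasts of limb muscle from pups aged 2 to 3 days. They were differentiated in medium with 5% horse serum. The 4 groups were Control, IL6, LIF and OSM, with 2 libraries each. The last 3 groups received interleukin 6, leukaemia inhibitory factor or oncostatin M at 250 ng/ml for 48 h, and all cells were collected 72 h after differentiation began. The labels name no vehicle for the controls and do not say whether the 2 libraries of a group come from separate animals, so p-values measure only the spread between these libraries, which may be technical.

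Krüppel-like factors bind GC-rich and CACCC-type DNA through zinc fingers near their carboxyl end, and the rest of each protein decides whether it activates or represses. Several are immediate-early genes that respond within a short time to growth factors, hormones or injury. In muscle, members of the family are known for roles in myoblast differentiation and fusion (Klf2, Klf4, Klf5) and at muscle promoters (Klf3). Others are known for roles in the hormonal control of fuel use (Klf9, Klf15). OSM, LIF and IL6 signal through the shared receptor subunit gp130 to JAK kinases and STAT3, a pathway that in mouse embryonic stem cells is known to act on Klf4.

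OSM raised Klf6, Klf9 and Klf13, LIF lowered Klf5, and no member passed the test with IL6. The Klf9 call was narrow (edgeR adjusted p 0.0467). Klf13 also changed by 0.19 on the log2 scale with LIF, which did not pass. The calls of Klf9, Klf13 and Klf5 were each lost under some alternative settings. Klf6 had the largest change that passed, a rise of 62.6% with OSM, and it was the 1 member that also passed the test of OSM against LIF. Klf15 was close to absent and was not tested. The 250 bases upstream of the annotated start of Klf6, Klf9 and Klf13 are shown because these are the members called with OSM. They are from RefSeq on GRCm38.p6, each read 5′ to 3′ on the gene's own strand, and GRCm39 is the build in the submitters' processing notes. The windows are chr13:5861239-5861488 (+) for Klf6, chr19:23140976-23141225 (+) for Klf9 and chr7:63938916-63939165 (-) for Klf13. Capitals mark matches on either strand to TTCNNNGAA (the STAT pattern), CACCC or GGGCGG (the GC box).

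Klf6: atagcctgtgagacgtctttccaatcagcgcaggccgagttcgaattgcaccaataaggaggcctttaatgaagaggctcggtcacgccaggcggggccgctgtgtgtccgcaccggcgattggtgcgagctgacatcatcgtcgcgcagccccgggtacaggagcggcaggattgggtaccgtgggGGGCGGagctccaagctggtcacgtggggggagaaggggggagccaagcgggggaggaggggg
Klf9: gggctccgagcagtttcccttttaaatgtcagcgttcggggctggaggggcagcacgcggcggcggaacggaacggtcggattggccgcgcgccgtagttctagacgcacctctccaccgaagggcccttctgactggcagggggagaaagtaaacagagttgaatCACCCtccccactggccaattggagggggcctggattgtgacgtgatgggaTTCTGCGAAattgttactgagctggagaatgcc
Klf13: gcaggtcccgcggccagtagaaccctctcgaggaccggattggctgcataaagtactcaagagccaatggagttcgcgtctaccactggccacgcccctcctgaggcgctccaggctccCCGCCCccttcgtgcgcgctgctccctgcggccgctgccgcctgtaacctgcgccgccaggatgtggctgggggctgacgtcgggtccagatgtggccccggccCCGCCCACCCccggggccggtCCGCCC

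The upstream sequence of Klf9 holds 1 STAT-pattern match, TTCTGCGAA, whose first base lies 33 bases before the start, and 1 CACCC match. In Klf13 there are 1 CACCC and 3 GC box matches, and in Klf6 only 1 GC box. RefSeq windows were matched for 8 of the 10 genes (Klf5 and Klf10 were not matched). Over the 300-base windows from 250 bases before to 50 after the start, TTCNNNGAA was found in Klf9 alone of the 8, against 8.3% of 32851 windows of all genes. CACCC was found in 6 of the 8 (57.5% of all windows) and GGGCGG in 7 of the 8 (35.7%), with Klf9 the one without. The 8 windows held 58.3% to 76.7% G and C bases, and the shares over all windows were not matched for this. Matches to different patterns can share bases, and a match is a description of sequence and not a bound site.

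The filter on low counts kept 9 of the 10 genes, all but Klf15. With OSM 3 of the 9 rose and 0 fell, where 21.4% of the 15603 tested genes differed from control (10.8% higher and 10.6% lower). With LIF 0 rose and 1 fell, where 7.66% of genes differed (4.2% higher and 3.46% lower). With IL6 none was called in edgeR, where the background was 0% as well, and 1 of the 9 (Klf4) had an unadjusted p under 0.05. Between cytokines, OSM against LIF gave 1 higher of the 9 (8.04% of genes, 4.01% higher and 4.04% lower). OSM against IL6 gave 3 higher and 1 lower (15.5%, 8.02% higher and 7.52% lower), and LIF against IL6 gave 1 lower (2.78%, 1.76% higher and 1.02% lower). These counts of so few genes are descriptions.

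DESeq2 called 4 of the 9 with OSM (17.8% of genes), 1 with LIF (7.4%) and 0 with IL6 (0.122%). It called 1 for OSM against LIF (7.65%), 3 for OSM against IL6 (13.5%) and 1 for LIF against IL6 (3.19%). Both libraries of a group lay beyond both controls for 8 of the 9 with OSM, where 60.9% of genes did so, for 7 with LIF (52%) and for 1 with IL6 (28.2%). Between cytokines this held for 6 in OSM against LIF (56.6%), 7 in OSM against IL6 (54.3%) and 3 in LIF against IL6 (43.5%). The median log2 change of the 9 was 0.24 with OSM, 0.10 with LIF and 0.032 with IL6, beside −0.0029, −0.0079 and 0.0006 over all tested genes. The comparisons with control share the same 2 control libraries.

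As counts per library size (CPM, scaled by TMM) and kilobase of the longest annotated transcript (CPM per kb), the control order was Klf10, Klf5, Klf4, Klf9, Klf6, Klf3, Klf13, Klf7, Klf2 and Klf15. Klf10, a gene induced early by TGF-beta, was at 36.1 ± 5.01 CPM per kb (SD, n = 2), and Klf5, which cooperates with MyoD in muscle differentiation, was at 35.8 ± 0.582. The control libraries of these neighbours overlapped, and so did those of Klf6 (15.2 ± 1.12) and Klf3 (14.2 ± 0.585). The other neighbours in the order did not overlap. Klf2, best known as a shear-stress gene of endothelium, was at 1.63 ± 0.118 CPM per kb and Klf15 at 0.0618 ± 0.0299. With OSM, Klf6 stood in the third place at 24.7 ± 0.480 CPM per kb, above Klf9 (20.9 ± 0.527) and Klf4 (20.2 ± 1.28), where in control it was below both. The order also depends on the length used, since on the union of all annotated exons Klf13 came before Klf3 in control and Klf6 before Klf5 with OSM.

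**Figure D1:**
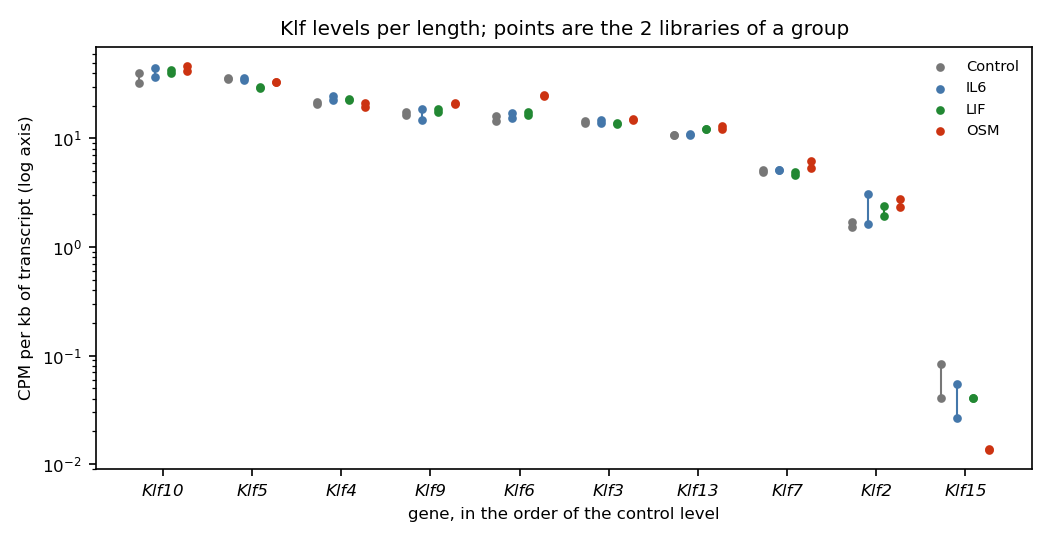
Levels per kilobase of the longest transcript (CPM per kb, log axis) for the 10 Klf genes, ordered by the control mean, with 2 points per group, 1 for each library, joined by a line. Klf10 and Klf5 lead in control at 36.1 and 35.8 CPM per kb, Klf15 is far below the rest, and Klf6 is the gene whose OSM points separate most clearly upward from the other groups.

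Klf6 (ENSMUSG00000000078, chromosome 13) encodes an activator that is induced early after tissue injury. Its level was 60.9 and 67.6 CPM in the control libraries, 71.8 and 65.5 with IL6, 69.3 and 73.7 with LIF, and 103 and 106 with OSM. Both OSM libraries lay above the other 6 libraries, whose groups lay close together. The log2 change with OSM was 0.70 (SE 0.073, 95% interval 0.55 to 0.86, edgeR adjusted p 1.22e-05). OSM also exceeded LIF by 0.55 on the log2 scale (SE 0.072, adjusted p 0.000314) and IL6 by 0.61 (SE 0.072, adjusted p 5.86e-05). With LIF the change of Klf6 was 0.15 (interval −0.003 to 0.31, adjusted p 0.254) and with IL6 0.095, also not past the threshold (0.950). The OSM call held under all 15 alternatives, with adjusted p-values of 1.57e-19 to 0.000689.

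Klf9 (ENSMUSG00000033863, chromosome 19), a repressor induced by glucocorticoids and thyroid hormone, was at 74.5 and 79.35 CPM in control, 66.75 and 84.5 with IL6, 78.1 and 84.1 with LIF, and 92.2 and 95.5 with OSM. The OSM libraries were the highest 2 of the 8, and the IL6 libraries lay the farthest apart and included the lowest of all. The log2 rise with OSM was 0.29 (SE 0.094, interval 0.083 to 0.49) with an edgeR adjusted p of 0.0467, just inside the threshold. The call held under the alternatives other than leaving out libraries in turn. Their adjusted p-values ranged from 0.000984 with no filter on low counts to 0.0491 with RLE size factors, both in edgeR. That call was lost on leaving out any 1 of the 6 control, LIF or OSM libraries (adjusted p 0.067 to 0.21), with log2 rises of 0.24 to 0.34. OSM exceeded IL6 by 0.31 (SE 0.094, adjusted p 0.0408), which became 0.16 (adjusted p 0.187) without IL6 replicate 1, the library with the lowest Klf9, and 0.49 (adjusted p 0.000332) without IL6 replicate 2. That call was also lost without either LIF or either OSM library (adjusted p 0.0614 to 0.203), and in a fit of OSM and IL6 alone (0.0726). Between OSM and LIF the difference was 0.21 (interval 0.008 to 0.41, adjusted p 0.222), and it passed in a fit of those groups alone (0.00555) and without IL6 replicate 1 or 2 (0.034 and 0.0353).

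Klf13 (ENSMUSG00000052040, chromosome 7) encodes a close relative of the Klf9 protein. It stood at 68.5 and 69.4 CPM in control and 70.2 and 68.2 with IL6, against 78.2 and 78.7 with LIF and 83.7 and 78.65 with OSM. The LIF and OSM libraries were all above the control and IL6 libraries, and LIF and OSM overlapped. The log2 rise with OSM was 0.24 (SE 0.062, interval 0.10 to 0.37, edgeR adjusted p 0.015). The change with LIF was 0.19 (SE 0.062, interval 0.054 to 0.32), which did not pass (adjusted p 0.0915). Set directly against each other, OSM and LIF differed by 0.049 (interval −0.083 to 0.18, adjusted p 0.733). OSM exceeded IL6 by 0.23 (SE 0.062, adjusted p 0.0215). The OSM call against control was lost without control replicate 1 (adjusted p 0.0677) or OSM replicate 1 (0.152). The call against IL6 was lost without IL6 replicate 2 (0.0589), either LIF library (0.0514 and 0.0513) or OSM replicate 1 (0.199), and in the fit of the 2 groups alone (0.0611).

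Klf5 (ENSMUSG00000005148, chromosome 14) was the member that fell with LIF. It was at 121 and 119 CPM in control, 115 and 122 with IL6, 99.55 and 97.1 with LIF, and 111 and 112 with OSM. The LIF libraries were the lowest of the 8, and the OSM libraries lay between them and the control libraries. LIF lowered Klf5 by 18% (log2 change −0.29, SE 0.059, interval −0.41 to −0.16, edgeR adjusted p 0.00911). It was also lower with LIF than with IL6 (−0.27, SE 0.059, adjusted p 0.031). With OSM the change was −0.11 (interval −0.24 to 0.019, adjusted p 0.227), and OSM minus LIF was 0.18 (SE 0.059, interval 0.051 to 0.31, adjusted p 0.0897). Leaving out LIF replicate 1 or 2 ended the call against control (adjusted p 0.0835 and 0.147), with log2 changes of −0.30 and −0.27. The call against IL6 ended without either LIF or OSM library or IL6 replicate 2 (0.064 to 0.326) and with 2 groups in the fit (0.0691). In the fit of OSM and LIF alone their difference passed (adjusted p 0.00917), as it did without IL6 replicate 1 or 2 (0.0378 and 0.0426).

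**Figure D2:**
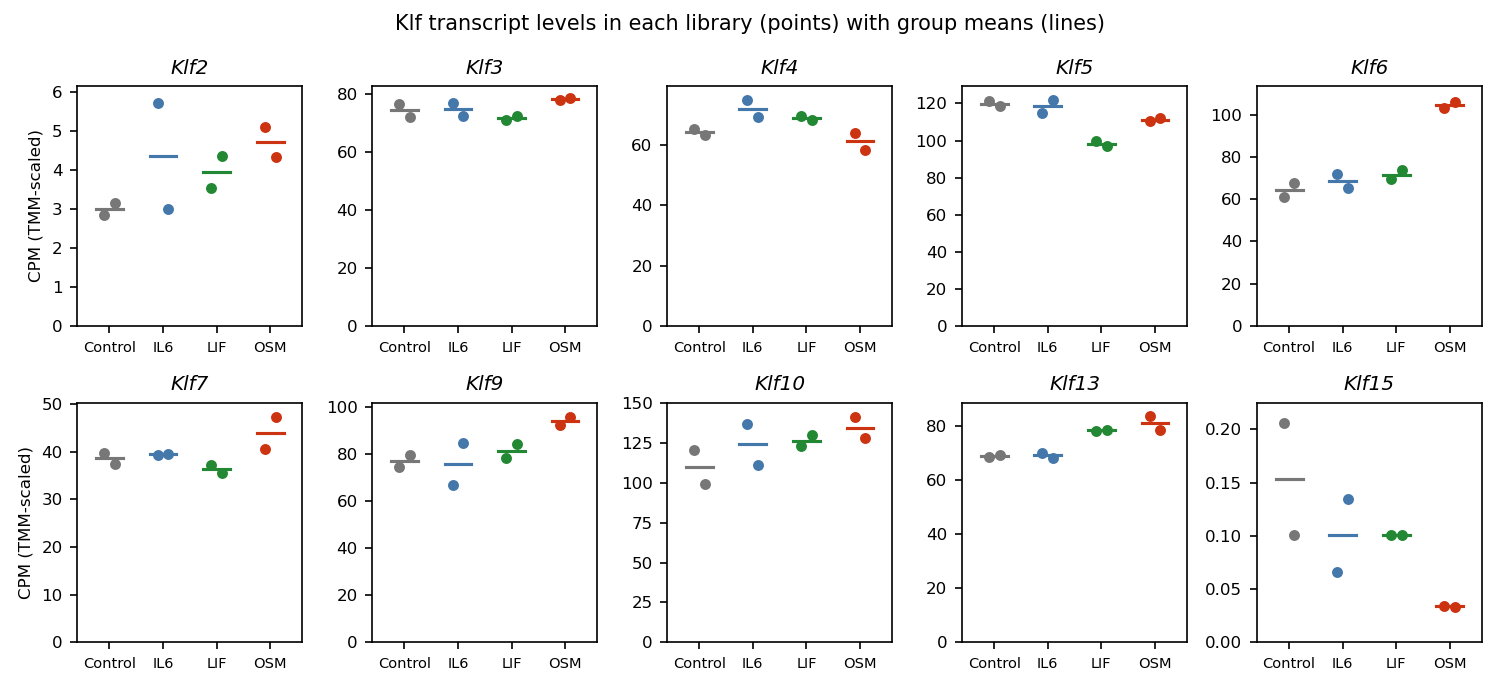
Level of each Klf gene (TMM-scaled CPM, linear axis from 0) in each of the 8 libraries, with points for libraries and a line for the mean of each group of 2. Klf6 is at 103 and 106 CPM with OSM against 60.9 to 73.7 in the other 6 libraries, and Klf5 is lowest with LIF.

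Klf4, a reprogramming factor of embryonic stem cells, was at 65.1 and 63.1 CPM in control, 74.8 and 69.03 with IL6, 69.45 and 68.1 with LIF, and 63.9 and 58.4 with OSM. The highest level was in IL6 replicate 1 and the lowest in OSM replicate 2, IL6 and LIF overlapped, and so did OSM and control. Of the 6 comparisons the test passed in 1, OSM against IL6, where Klf4 was lower with OSM (log2 −0.23, SE 0.069, edgeR adjusted p 0.0348). That call was lost under 7 of the 15 alternatives, among them the DESeq2 Wald test (0.0526) and the fit of the 2 groups alone (0.0781). It was also lost without IL6 replicate 1, without either LIF library and without either OSM library (0.0713 to 0.309). Against control the log2 changes were −0.069 with OSM (adjusted p 0.539), 0.10 with LIF (0.468) and 0.17 with IL6 (unadjusted p 0.0319, adjusted p 0.943). LIF minus control had an interval of −0.048 to 0.25. OSM minus LIF was −0.17 (interval −0.32 to −0.021, adjusted p 0.176), which passed in a fit of those groups alone (0.0378).

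Klf10 was at 121 and 99.2 CPM in control, 137 and 111 with IL6, 123 and 129.5 with LIF, and 141 and 128 with OSM. Both OSM libraries were above both controls, but the 2 control libraries lay well apart and the IL6 libraries overlapped every other group. The log2 change with OSM of 0.29 (SE 0.11, interval 0.046 to 0.53) did not pass in edgeR (adjusted p 0.0911). It passed with the DESeq2 Wald test (0.0409), with the replicate number as a block (0.0112), with no filter on low counts (0.000462) and in a fit of those 2 groups alone (0.0377). It also passed without control replicate 1 (0.44, adjusted p 0.0202), the control with the higher level, and without IL6 replicate 1 or 2 (0.0216 and 0.0241). Without control replicate 2 the log2 change was 0.16. With LIF the change was 0.20 (adjusted p 0.352) and with IL6 0.17 (adjusted p 0.943).

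Klf2 was scarce, with 83 and 94 counts in control, 173 and 89 with IL6, 105 and 130 with LIF, and 149 and 129 with OSM. Its highest count was in IL6 replicate 1 and its second-lowest was in IL6 replicate 2, so the IL6 libraries reached from between the controls to above all others. With 83 counts the counting error alone is 11% of the value. The log2 change with OSM was 0.65 (SE 0.26, interval 0.078 to 1.22, edgeR adjusted p 0.104), close in size to that of Klf6 but with a wider interval. It passed with no filter on low counts (0.00919), in a fit of those 2 groups alone (0.0231) and without IL6 replicate 1 or 2 (0.0148 and 0.0135). With LIF the change was 0.39 (adjusted p 0.469). With IL6 it was 0.54 (adjusted p 0.943), which became −0.001 without IL6 replicate 1 and 0.93 (adjusted p 0.0392) without IL6 replicate 2.

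Klf7, known from nerve development, was at 39.6 and 37.4 CPM in control, 39.3 and 39.5 with IL6, 37.2 and 35.4 with LIF, and 40.5 and 47.3 with OSM. OSM replicate 2 was high, and OSM replicate 1 was close to the controls. The log2 change with OSM was 0.19 (interval 0.010 to 0.37, adjusted p 0.129), and without OSM replicate 2 it was 0.079. OSM minus LIF was 0.27 (SE 0.083, adjusted p 0.0618), which passed under 7 of the 15 alternatives, the replicate block among them (0.0338). In GENCODE M21 (GRCm38), 39.4% of the Klf7 exon bases overlap genes on the opposite strand, and 40.8% of its 50-base stretches occur in transcripts of Gm26649. The strand setting of the counting is not given in the sources used here, so reads of the partners cannot be told from those of Klf7. Of these partners, Gm13748 had 0 counts in each library, which allows up to 3 counts per library. Gm26649 was looked for and was not found among the symbols of the counted genes.

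Klf3, a repressor that recruits the corepressor CtBP, had the narrowest range of the 9 tested genes relative to its level. Its 8 libraries lay between 71.0 and 78.4 CPM, and the log2 changes were 0.074 with OSM (interval −0.063 to 0.21), −0.052 with LIF (−0.19 to 0.085) and 0.007 with IL6 (−0.13 to 0.14). Of the Klf3 exon bases 3.6% overlap Gm20033 on the opposite strand, which had 79 to 110 counts per library, and 6.92% of its 50-base stretches occur in transcripts of other genes.

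Klf15, the glucocorticoid-induced activator of amino acid and lipid use in muscle, had 6 and 3 counts in control, 2 and 4 with IL6, 3 and 3 with LIF, and 1 and 1 with OSM. The OSM libraries had the fewest counts. These numbers did not pass the filter on low counts, so Klf15 was not tested, and no fold is given from 1 count in a library.

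**Figure D3:**
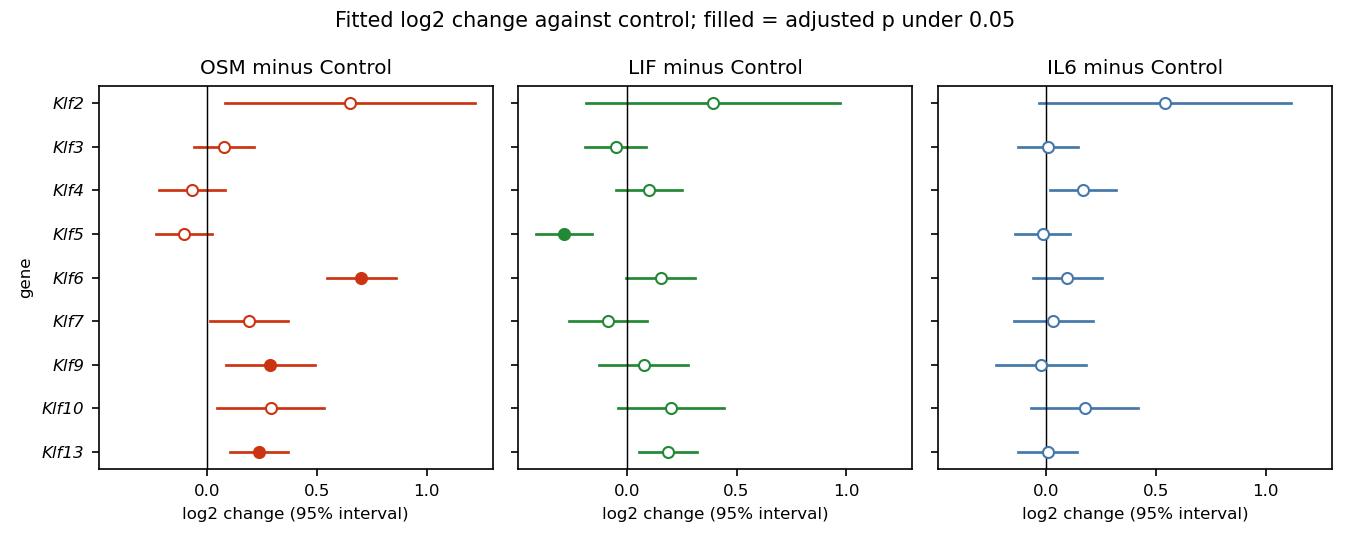
Fitted log2 change against control (points) with 95% intervals (lines) for the 9 tested Klf genes, 1 panel each for OSM, LIF and IL6; filled points have an adjusted p under 0.05. Klf6 at 0.70 with OSM stands apart from 0, Klf2 has the widest interval, and no point is filled for IL6.

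**Figure D4:**
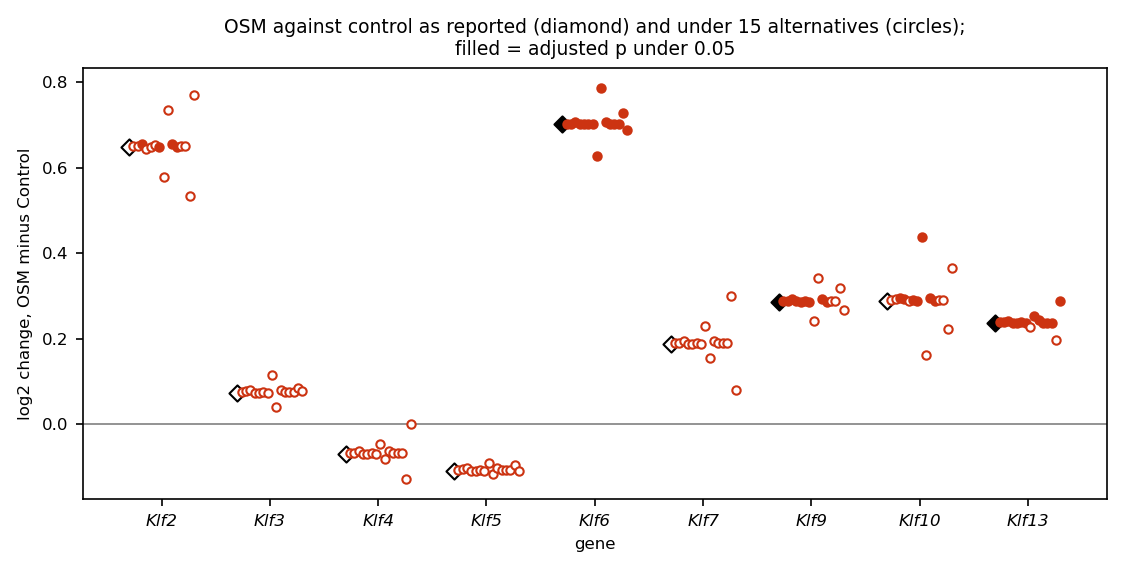
Log2 change of the 9 tested genes with OSM against control as reported (diamonds) and under 15 alternative settings (circles), filled where the adjusted p is under 0.05. Klf6 is filled throughout, Klf9 and Klf13 lose and Klf2 and Klf10 gain filled points under some settings, and Klf4 is the gene whose sign turns, to 0.001, without OSM replicate 2.

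By likeness of pattern over the 8 libraries (Pearson r of log2 CPM, among 10745 candidate genes), the genes nearest to Klf6 were Pcmtd2 (r 0.994), Heatr5b (0.990) and Rtl5 (0.989). Nearest to Klf9 were Rbbp9 (0.984), Vkorc1 (0.983) and Slc25a30 (0.982). Nearest to Klf13 were Tm2d2 (0.990), Bud13 (0.987) and Gucd1 (0.986). Klf5 had lower values, with Sorbs3 (0.964), Cald1 (0.963) and Cobll1 (0.959). These are the highest of many correlations over 8 libraries that share their groups, so they are descriptions only. Rtl5 changed by 0.91 with OSM, more than Klf6, and Heatr5b by 0.19.

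Other genes of the family and pathway were read from lists. Of 16 other Klf and Sp genes 10 were tested, and none was called in edgeR with OSM or LIF (0 with an unadjusted p under 0.05 in either comparison, and 0 by DESeq2). Of all tested genes edgeR called 21.4% with OSM and 7.66% with LIF. Among them Klf12 had a log2 change of −0.28 with OSM (adjusted p 0.228), and Sp1, which encodes the ubiquitous GC-box factor, had a change of −0.032 from a control level of 173.8 ± 14.5 CPM. The median of the 10 with OSM was −0.097.

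Of 20 partners and upstream factors of the family, 3 were called higher and 2 lower with OSM, where 21.4% of all tested genes were called. Nr3c1, which encodes the glucocorticoid receptor, rose from 158.9 ± 2.55 to 196.7 ± 6.38 CPM with OSM (log2 0.31, adjusted p 0.00168). Stat3 rose by 0.27 (adjusted p 0.00381) and the acetyltransferase gene Kat2b by 0.29 (adjusted p 0.0203). The muscle transcription factor genes Mef2a and Mef2c changed by −0.38 (adjusted p 0.000531) and −0.29 (adjusted p 0.00435). These partner and factor names fall outside the size rule for naming and were chosen after their values were seen. With LIF 2 were higher (Stat3 and Nr3c1) and 3 lower (Mef2a, Mef2c and Fbxw7), where 7.66% of all tested genes were called. When single libraries were left out, the number called with OSM moved up and down, and the number called with LIF held or fell.

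Glucocorticoid-induced genes were listed because Klf9 and Klf15 belong to that class. Of 12, 11 were tested, and 3 were higher and 0 lower with OSM, where 10.8% of all tested genes were higher and 10.6% lower. Errfi1 rose by 1.01 (SE 0.099, adjusted p 8.05e-06), Cebpd by 0.81 (SE 0.17, adjusted p 0.00768) and Sgk1 by 0.63 (SE 0.094, adjusted p 0.000326). The widely used receptor reporters Fkbp5 and Tsc22d3 were not called with OSM, at −0.26 (adjusted p 0.0847) and −0.034 (adjusted p 0.768). The list median was −0.034. With LIF 1 was higher (Cebpd, 0.98, adjusted p 0.0072) and 1 lower (Tsc22d3, −0.30, adjusted p 0.013), against 4.2% and 3.46% of all tested genes. Both the number called with OSM and the number called with LIF moved up and down when single libraries were left out. None was called with IL6 in edgeR, where 1 had an unadjusted p under 0.05, and 3 were called without IL6 replicate 2.

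Of 16 genes of amino acid and lipid use, the kind that Klf15 is known to control, 1 was higher and 4 lower with OSM, against 10.8% and 10.6% of all tested genes. Lpl, which encodes lipoprotein lipase, changed from 16.6 ± 1.88 to 8.32 ± 2.23 CPM (log2 −0.999, adjusted p 0.00369). Fabp3, a fatty acid carrier, changed by −0.69 (adjusted p 0.0135), Gpt2, an alanine aminotransferase, by −0.67 (adjusted p 2.13e-05) and Bckdhb, of branched-chain keto acid breakdown, by −0.54 (adjusted p 0.0248). Acadm, a fatty acid oxidation gene, was the higher one (0.45, adjusted p 0.000376). With LIF 0 were higher and 2 lower, against 4.2% and 3.46% of all tested genes. The 2 were Fabp3 (−1.01, adjusted p 0.00556) and the glucose transporter gene Slc2a4 (−0.62, adjusted p 0.0139). The list median was −0.19 with OSM and −0.055 with LIF. Leaving out single libraries, the number called with OSM held or fell, and the number called with LIF moved up and down. None was called with IL6 in edgeR, where 2 had an unadjusted p under 0.05, and 2 were called without IL6 replicate 2.

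Of 9 TGF-beta-induced genes, listed because Klf10 and Klf6 are in that class, 3 rose with OSM and 0 fell, against 10.8% and 10.6% of all tested genes. The feedback inhibitor gene Smad7 went from 30.5 ± 0.826 to 48.6 ± 6.79 CPM (log2 0.67, SE 0.10, adjusted p 0.000371). Bhlhe40 rose by 0.23 (adjusted p 0.0215). The other 6 were not called, among them Tgfbi at −0.52 (edgeR adjusted p 0.0951). The list median with OSM was 0.04, with 6 of the 9 log2 changes positive and 3 negative. With LIF 1 rose and 1 fell, against 4.2% and 3.46% of all tested genes. The latter was Ccn2, a matrix-associated growth factor gene, by 1.14 (adjusted p 0.0101). Of 4 targets of Klf2 and Klf4, 3 were tested. With OSM 1 was higher and 1 lower, and with LIF 1 was lower, beside the same shares of all tested genes. The matrix gene Npnt changed by −0.22 with OSM (adjusted p 0.02) and −0.33 with LIF (adjusted p 0.00584), S1pr1 rose with OSM by 0.50 (adjusted p 0.000887), and Nos3 was called with neither. In the TGF-beta list, with single libraries left out, the number called with OSM held or fell, and that with LIF moved up and down. Of the Klf2 and Klf4 targets, the 2 called with OSM became 1 without control replicate 2 or either OSM library, and the 1 called with LIF became 0 without either LIF library.

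Markers of the cells in the dishes moved with the groups, and bulk counts cannot tell fewer cells of a type from less RNA per cell. All 6 proliferation markers were lower with OSM and with LIF, and their summed level was 728 and 863 CPM in control, 681 and 735 with IL6, 571 and 529 with LIF, and 200 and 244 with OSM. The 9 myotube markers summed to 26700 to 28000 CPM in control, 23600 and 26000 with IL6, 26000 and 24400 with LIF, and 23500 to 23600 with OSM, with 1 called higher and 3 lower with OSM. Of 6 fibroblast markers 4 were tested, with 1 called higher with OSM (Pdgfra, 0.53, adjusted p 0.0193). Col1a1, which made up most of the summed level, was at 239 ± 98.7 CPM in control and 78.4 ± 8.90 with OSM (−1.61, adjusted p 0.0858), and 2 of the 4 were called by DESeq2 and without robust estimation. The markers summed to 183 and 320 CPM in control, 103 to 174 with IL6, 133 to 196 with LIF, and 87.4 to 103 with OSM, and Lum was at 0 throughout. The macrophage markers Ptprc and Adgre1 had at most 3 counts in a library, though Cd68 rose with OSM (1.03, adjusted p 0.00186), and the list summed to 2.68 to 5.44 CPM over all libraries. Endothelial markers summed to 1.28 to 2.28 CPM with Emcn at 0, and the adipocyte markers reached at most 3 counts each. Without control replicate 2 and LIF replicate 2, in turn, 3 and 2 of the proliferation markers were called with LIF. The myotube markers called with OSM numbered 7 without either IL6 library, and 1 and 2 without OSM replicate 1 and 2, and the fibroblast marker lost its call without control replicate 1 or OSM replicate 2. The part of these markers in the Klf changes was not tested.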

How the data were processed

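RNA was sequenced from 8 libraries of mouse primary myotubes in 4 groups of 2. Each library has its own deposited file of unnormalised read counts by gene. The submitters' processing notes name Trim Galore 0.6.5, STAR 2.7.3a, HTSeq 0.11.1, DESeq2 1.34.0 and the build GRCm39, without their settings. The kit was a stranded poly(A) kit, per the labels' protocols, and the strand setting of the counting and the annotation release are not given in the sources used here. Gene totals were 29482077 to 30025471 counts per library, and 11.7% to 12.7% of recorded alignments were assigned to no gene and left out. Symbols came from GENCODE M21 (52093 of 53647 identifiers), as did lengths and overlaps.

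Counts were tested with edgeR 4.0.16 in R 4.3.3: filterByExpr at a minimum count of 10 (15603 genes kept), TMM scaling, and a robust quasi-likelihood fit of the 4 group means to all 8 libraries (4 residual degrees of freedom). P-values were adjusted by Benjamini and Hochberg over all genes within each of 6 comparisons, with 0.05 as the threshold for a call. The fit was tested on simulated data. CPM are TMM-scaled, and an SD is over 2 libraries. Intervals of 95% are from the fit. Counting error and the limit of 3 counts behind a 0 cover counting error only, as reads are not independent molecules. Replicates differed by more than counting error (chi-square per gene 2.89 to 11.4).

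The members and the gene lists were chosen with earlier results of these data known. All 10 members are named. Most-like genes are the 3 with the highest r for each member called against control, among protein-coding genes averaging 100 counts or more. From each list, genes called with OSM or LIF and changed by at least 0.5 on the log2 scale are named, up to 4, and any member of a list of 6 or fewer, and other names were chosen after their values were seen. A gene that this rule names is not reported here. The alternatives were RLE size factors, library size only, no filter on low counts, the DESeq2 1.42.0 Wald test, a replicate block, only the 2 groups in the fit, no robust estimation, and each library left out in turn. In the last, a group left with 1 library is assumed to vary like the others.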

Additional observations from a re-analysis of the deposited data

Results flagged for a closer look

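Direct tests between cytokines at the same dose and time called 6 differences among the Klf genes, all with edgeR's quasi-likelihood test. Over all tested genes, 8.04% were called for OSM against LIF, 15.5% for OSM against IL6 and 2.78% for LIF against IL6. For Klf6 the log2 difference was 0.547 for OSM minus LIF and 0.606 for OSM minus IL6, and the libraries did not overlap. Klf9 and Klf13 were higher with OSM than with IL6 by 0.312 and 0.231, again with no overlap of libraries. Klf4 was lower with OSM than with IL6 (−0.235), and Klf5 was lower with LIF than with IL6 (−0.268). The libraries did not overlap in any of the 6 calls. Over all tested genes the same held for 56.6% in OSM against LIF, 54.3% in OSM against IL6 and 43.5% in LIF against IL6. Apart from the 2 for Klf6, each of these calls was lost under 5 to 7 of the 15 alternatives. Groups of 2 libraries are too small to test for a library that stands apart.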

How the results depend on the processing

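Over 54 results (9 genes in 6 comparisons) and 15 alternatives, 809 values were obtained, since DESeq2 gave no adjusted p for Klf2 with IL6. Of these, 729 kept their direction and side of the threshold, 34 lost a call, 27 gained one, and 19 changed sign without a call on either side. No called value changed sign, and 28 of the 54 results kept direction and side throughout. The causes of the changes below were not tested.

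The number of Klf genes called for OSM against control was 3, and 5 both without a filter on low counts and in a fit of those 2 groups alone. All genes called for OSM against control went from 3335 of 15603 to 3704 of 27694 without the filter and 3430 of 15140 in that fit. For OSM against LIF the number of Klf genes was 1, and 2 without the filter, 2 with the replicate block and 5 in the fit of those 2. All genes called for OSM against LIF moved as well, from 1255 of 15603 to 1742 of 27694 without the filter, 1760 of 15603 with the block and 2928 of 15092 in the fit of those 2. For OSM against IL6 the number of Klf genes was 4 and became 1 with only the 2 groups. All genes called there went from 2426 of 15603 to 2065 of 15206. For LIF against IL6 the number of Klf genes was 1 and became 0, and all genes called went from 434 of 15603 to 346 of 15123. Leaving out each library in turn moved the Klf counts in every comparison, and the number of all genes called moved as well. For OSM against control both numbers were lowest without OSM replicate 1 and highest without IL6 replicate 1 or 2. Glucocorticoid-induced genes called with OSM numbered 3, and 6 without the filter and 7 with the replicate block. With that block 3966 of all 15603 genes were called for OSM against control.

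The labels number replicates 1 and 2 in each group without saying that a number marks a shared source. Deviations of replicate 1 from its group mean correlated between groups at 0.007 to 0.181, all positive. The numbers were not taken as pairs in the fit, and these values cannot tell whether they mark pairs. With the replicate block, all genes called went from 3335 to 3966 of 15603 for OSM against control. For LIF against control they went from 1195 to 1670. The block called Klf10 for OSM against control and Klf7 for OSM against LIF, beyond the genes called without it. Counting error limits Klf2 and Klf15.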

Other observations

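The 10 Klf genes together took 0.0613% and 0.0621% of the counts in the control libraries and 0.071% and 0.0712% with OSM, with 0.0623% and 0.0644% for LIF and 0.0673% and 0.0633% for IL6. Within the counts of all 17 Klf genes listed, the share of Klf6 was 9% and 10.1% in control and 13.5% and 14.0% with OSM.

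IL6 replicate 1 had the most genes with a count (21831, against 21358 to 21545 in the other 7 libraries). It also had the highest Klf2 and Klf4 and the lowest Klf9 of the 8 libraries.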
